A study of Homo sapiens with 18 samples.

Results

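The genes described here are 10 genes of the prostate secretory cell: the kallikreins KLK2, KLK3 and KLK4, the secreted proteins ACP3 and MSMB, the membrane proteins TMPRSS2, FOLH1 and SLC45A3, and the transcription factors HOXB13 and FOXA1. They were chosen by name as lineage and secretory genes, and every probe set that the platform annotation assigns to 1 of them alone was taken. This gave 28 probe sets of 10 genes, out of 41091 single-symbol probe sets of 19775 genes. KLK2 had 4 probe sets, KLK3 3, KLK4 5, TMPRSS2 4, ACP3 3, FOLH1 1, and MSMB, HOXB13, SLC45A3 and FOXA1 had 2 each. A further 3 probe sets carry both FOLH1 and the related FOLH1B and are described apart.

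The study asked which transcripts depend on Stat5a/b and which on Stat3 in human prostate cancer cells. CWR22Rv1 and DU145, established cell lines, were each given siRNA against Stat5a and Stat5b together, siRNA against Stat3, or scramble siRNA as the control. All cells were transfected with Lipofectamine, grown in serum-containing medium and taken for total RNA 48 h later, and the labels name no added androgen and no androgen receptor inhibitor. Each of the 6 groups held 3 Affymetrix arrays, 18 in all: CWR22Rv1 with Stat5a/b siRNA, CWR22Rv1 with Stat3 siRNA, CWR22Rv1 with scramble, DU145 with Stat5a/b siRNA, DU145 with Stat3 siRNA, and DU145 with scramble. Every cell received an siRNA, so there was no untransfected sample to set beside the scramble control. The labels call the 3 samples of a group a triplicate and say nothing of separate cultures. The p-values therefore rest on how far these samples differed from each other, which may be technical.

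Prostate luminal cells secrete the prostatic part of the seminal fluid. Most of the genes that mark them are switched on by the androgen receptor, a nuclear hormone receptor that binds DNA at androgen response elements. FOXA1 opens chromatin for the receptor, and HOXB13 is a homeobox factor that binds beside it in prostate cells. CWR22Rv1, which came from a relapsed prostate tumour xenograft, expresses the androgen receptor, whereas DU145, from a brain metastasis, is androgen-insensitive and is known for little or no receptor. The receptor's own transcript was not analysed here.

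KLK15, KLK3, KLK2 and KLK4 follow each other on chromosome 19 in the RefSeq gene table. KLK3 and KLK2 arose by duplication, and their promoters are printed because both genes separated the lines and each had probe sets that read lower on every CWR22Rv1 Stat3 siRNA array than on any scramble array. Each is a window of RefSeq sequence (GRCh38.p14) from upstream of the gene's start to just past it, KLK3 at chr19:50854665-50854964 and KLK2 at chr19:50873189-50873488, both on the plus strand. Capitals mark AGAACA, the hexamer that begins an androgen response element, and TTTATA, which reads TATAAA on the opposite strand.
KLK3 promoter: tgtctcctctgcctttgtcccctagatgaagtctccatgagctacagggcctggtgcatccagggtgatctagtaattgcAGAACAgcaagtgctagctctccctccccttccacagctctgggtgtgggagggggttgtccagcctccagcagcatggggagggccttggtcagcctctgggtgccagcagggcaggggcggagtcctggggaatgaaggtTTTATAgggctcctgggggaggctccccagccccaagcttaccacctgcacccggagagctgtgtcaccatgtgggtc
KLK2 promoter: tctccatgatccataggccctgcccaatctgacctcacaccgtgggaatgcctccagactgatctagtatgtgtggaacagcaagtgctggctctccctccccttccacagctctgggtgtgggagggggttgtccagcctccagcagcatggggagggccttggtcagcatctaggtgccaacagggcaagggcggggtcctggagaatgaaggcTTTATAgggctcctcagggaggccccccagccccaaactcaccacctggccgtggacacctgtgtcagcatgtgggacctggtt

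Laid side by side without gaps, the KLK3 and KLK2 promoters were identical at 225 of 294 bases, or 76.5%. The KLK3 promoter holds AGAACA at position -170, where its proximal androgen response element is described. The 15 bases from there, AGAACAGCAAGTGCT in KLK3, are GGAACAGCAAGTGCT in KLK2, a difference of A1G counted from the 5′ end of that stretch, so the KLK2 promoter lacks the marked hexamer. The TATA box match lies at -28 in KLK3 and at -34 in KLK2. Counting both strands, 14.8% of 35116 RefSeq promoters of this length held the hexamer and 11.5% the TATA box letters, so neither is rare.

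The promoter table held 7 promoters for 6 of the genes, KLK2, KLK3, ACP3, SLC45A3 and FOXA1 with 1 each and KLK4 with 2. Among these 7, the palindrome that STAT dimers bind, TTCNNNGAA (N being any base), occurred only in ACP3, against 7.66% of all promoters. It is printed in capitals, with flanks, because the knocked-down factors are STAT proteins, and ACP3 was called in no siRNA comparison.
ACP3 promoter, chr3:132317301-132317351, plus strand, palindrome at -85: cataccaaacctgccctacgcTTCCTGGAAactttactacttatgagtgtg

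The full palindromic androgen response element and the forkhead core TGTTTAC, the kind of site FOXA1 binds, were in none of the 7. They were in 0.00285% and 3.42% of all promoters. A match or its absence describes the letters of a short window and says nothing of whether a factor binds there.

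The deposited values are log2 expression values, in which 1 unit is a doubling. Array medians ran from 5.16 to 5.20, and arrays of a group correlated at 0.993 to 0.998 over all probe sets. STAT3, the target of Stat3 siRNA, changed by -1.13 ± 0.09 with that siRNA in CWR22Rv1 and by -1.62 ± 0.09 in DU145 (log2 change ± SE, n = 3 arrays per group here and below). STAT5B changed by -0.91 ± 0.09 with Stat5a/b siRNA in CWR22Rv1 and by -1.36 ± 0.09 in DU145, and all 4 of these changes passed the limma test after Benjamini-Hochberg adjustment, the highest adjusted p being 2.39e-05. STAT5A had log2 changes of -0.34 and -0.30 with Stat5a/b siRNA and did not pass (adjusted p = 0.180 in CWR22Rv1 and 0.119 in DU145). Markers of leukocytes (PTPRC, CD3E, CD14 and MS4A1; array means of the list 3.76 to 3.99 in CWR22Rv1 and 3.81 to 4.35 in DU145) and of endothelium (4.15 to 4.36 in CWR22Rv1 and 4.07 to 4.40 in DU145) lay below the array medians on all arrays as list means. Single genes did not all do so. CD14 averaged up to 6.12, in DU145 scramble arrays, and the endothelial marker PECAM1 averaged 5.49 on CWR22Rv1 and 5.36 on DU145 scramble arrays. No level is set against another gene's below, since probe sets differ in how brightly they hybridise.

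**Figure D1:**
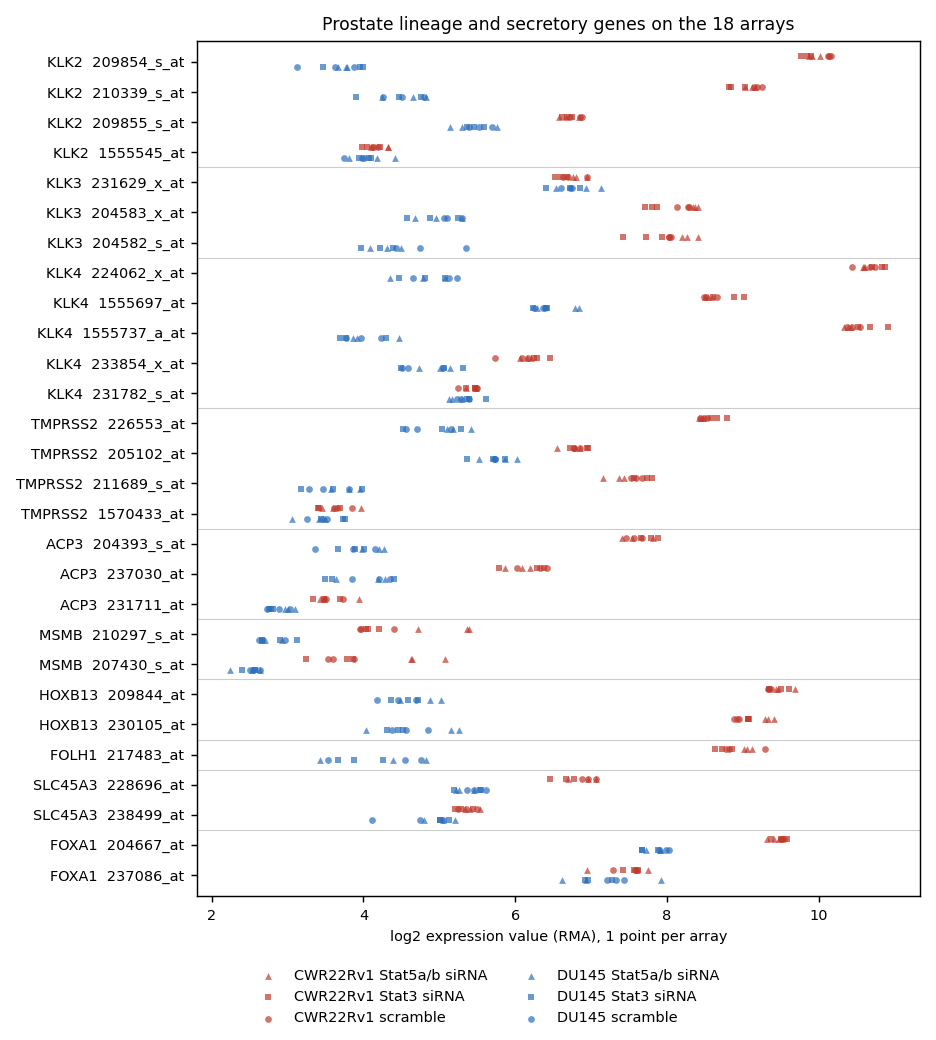
Each row is a probe set of the 10 genes and each point is 1 array, placed on the horizontal axis by its log2 expression value. Red points are CWR22Rv1 arrays and blue points DU145 arrays, with triangles for Stat5a/b siRNA, squares for Stat3 siRNA and circles for scramble. In most rows the red and blue points lie far apart, while the 3 red or 3 blue groups lie close together.

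The 10 lineage and secretory genes described here separated the lines. On scramble arrays, 23 of the 28 probe sets, covering all 10 genes, were called higher in CWR22Rv1 than in DU145, and 0 were called lower (limma, adjusted p under 0.05 with adjustment over all 41091 probe sets). Over all probe sets 27.1% were called higher and 53.3% in either direction. The median log2 difference over the 28 was 1.84, beside 0.015 over all probe sets. On 25 of the 28 probe sets every CWR22Rv1 scramble array lay above every DU145 scramble array, against 31.2% of all probe sets. In bulk RNA of a cell line, a smaller share of expressing cells and less RNA per cell cannot be told apart.

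Of the kallikreins, which are secreted serine proteases, KLK2 is a trypsin-like enzyme that can activate pro-KLK3. Its probe set 209854_s_at read 10.12, 10.16 and 10.14 on CWR22Rv1 scramble arrays, against 3.12, 3.88 and 3.63 on DU145 scramble arrays, a log2 difference of 6.59 ± 0.15. How far the low DU145 readings lie above background is unknown, so these differences are given on the log2 scale and not as folds. KLK4, an androgen-regulated protease of the prostate, read 10.44, 10.75 and 10.68 on its probe set 224062_x_at in CWR22Rv1, against 4.65, 5.23 and 5.13 in DU145, a difference of 5.62 ± 0.18. On both probe sets the lines were far apart and the 3 arrays of a line close together. KLK2 also differed on 210339_s_at (4.67 ± 0.18) and 209855_s_at (1.29 ± 0.13), and KLK4 on 1555737_a_at (6.46 ± 0.17), 1555697_at (2.22 ± 0.13) and 233854_x_at (1.29 ± 0.18).

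KLK3 encodes prostate-specific antigen, the protease that liquefies the semen clot and the serum marker of prostate cancer. Its probe set 204583_x_at read 8.27, 8.30 and 8.14 on CWR22Rv1 scramble arrays, against 5.11, 5.30 and 5.06 on DU145 scramble arrays, a difference of 3.08 ± 0.15. Its probe set 204582_s_at read 8.06, 8.03 and 8.03 in CWR22Rv1, against 4.75, 5.36 and 4.43 in DU145, a difference of 3.19 ± 0.18. The probe set 231629_x_at, whose mean over the 18 arrays is the highest of the KLK3 probe sets, read 6.70, 6.63 and 6.95 in CWR22Rv1, against 6.60, 6.72 and 6.75 in DU145. There the lines overlapped, with a difference of 0.06 ± 0.14 (adjusted p = 0.729). A choice of 1 probe set a gene by the highest mean therefore takes the KLK3 probe set on which the lines overlap.

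ACP3, prostatic acid phosphatase, read 7.67, 7.47 and 7.57 on 204393_s_at in CWR22Rv1 scramble arrays, against 3.36, 3.86 and 4.15 in DU145, a difference of 3.78 ± 0.16. Its other probe sets differed by 2.13 ± 0.23 (237030_at) and 0.69 ± 0.12 (231711_at). MSMB, the small secreted protein beta-microseminoprotein, is among the main proteins of normal seminal fluid. It read 4.41, 3.95 and 3.96 on 210297_s_at in CWR22Rv1, against 2.97, 2.63 and 2.66 in DU145, a difference of 1.35 ± 0.17, and 1.11 ± 0.16 on 207430_s_at. Every CWR22Rv1 array lay above every DU145 array on all 5 of these probe sets, yet the MSMB readings of the scramble arrays stayed under the array medians in both lines.

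The surface proteins followed the same direction. TMPRSS2, a membrane-anchored serine protease, read 8.43, 8.49 and 8.53 on 226553_at in CWR22Rv1 scramble arrays, against 4.57, 4.71 and 5.15 in DU145, a difference of 3.68 ± 0.16. It differed by 4.08 ± 0.17 on 211689_s_at and by 1.07 ± 0.13 on 205102_at. SLC45A3 (prostein), a membrane transporter of prostate epithelium, read 6.88, 7.07 and 6.96 on 228696_at in CWR22Rv1, against 5.61, 5.36 and 5.46 in DU145, a difference of 1.49 ± 0.12, and 0.73 ± 0.17 on 238499_at. In each gene the lowest CWR22Rv1 reading exceeded the highest DU145 reading.

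FOLH1 is prostate-specific membrane antigen, a surface carboxypeptidase used as a target for imaging. Its own probe set 217483_at read 9.29, 8.82 and 8.78 in CWR22Rv1 scramble arrays, against 4.75, 4.54 and 3.53 in DU145, a difference of 4.69 ± 0.31. The probe sets shared with FOLH1B differed by more. The values were 8.82 ± 0.14 on 205860_x_at, 8.34 ± 0.12 on 215363_x_at and 7.41 ± 0.21 on 217487_x_at, in a fit of all 54613 probe sets that are no controls, of which 47.8% were called. Which of both genes they read cannot be told from the annotation.

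Of the transcription factors, HOXB13 read 9.34, 9.37 and 9.34 on 209844_at in CWR22Rv1 scramble arrays, against 4.69, 4.17 and 4.45 in DU145, a difference of 4.91 ± 0.14, and 4.33 ± 0.22 on 230105_at. FOXA1 read 9.51, 9.54 and 9.51 on 204667_at in CWR22Rv1, against 7.99, 8.02 and 7.90 in DU145, a difference of 1.55 ± 0.08 or 2.93-fold. The lines did not overlap on any of these 3 probe sets, and FOXA1 differed by less than HOXB13.

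The 5 probe sets not called between the lines belong to genes whose other probe sets were. They are KLK2 1555545_at (0.24 ± 0.12), KLK3 231629_x_at, KLK4 231782_s_at (0.10 ± 0.09), TMPRSS2 1570433_at (0.29 ± 0.14) and FOXA1 237086_at (0.16 ± 0.25). Over all 18 arrays they spanned 3.75 to 4.41, 6.40 to 7.13, 5.13 to 5.62, 3.06 to 3.97 and 6.62 to 7.92. Probe sets marked _x_at or _s_at can hybridise with related transcripts, which for KLK2 and KLK3 may be each other. Why probe sets of 1 gene disagreed was not tested.

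With Stat5a/b siRNA in CWR22Rv1, MSMB rose about 2-fold and no other member passed the test. Both MSMB probe sets were called higher, 2 of the 28, against 4.26% of all probe sets called and 1.75% called higher. The members' median log2 change was 0.0061, beside 0.012 over all probe sets. Stat5a/b siRNA arrays lay wholly above scramble on 6 of the 28 probe sets, the MSMB pair among them, and wholly below on 3. The share of all probe sets that did so is not given here, so such separation below is a description of readings only.

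MSMB 210297_s_at read 5.39, 4.72 and 5.37 on the CWR22Rv1 Stat5a/b siRNA arrays, 4.20, 4.03 and 4.06 on the Stat3 siRNA arrays and 4.41, 3.95 and 3.96 on the scramble arrays. MSMB 207430_s_at read 4.62, 4.64 and 5.08 with Stat5a/b siRNA, 3.78, 3.25 and 3.87 with Stat3 siRNA and 3.53, 3.87 and 3.59 with scramble. On both probe sets all 3 Stat5a/b siRNA arrays were the highest in the line, and the Stat3 siRNA and scramble arrays overlapped. Against scramble, Stat5a/b siRNA changed them by 1.05 ± 0.17 (2.07-fold, adjusted p = 0.00157) and 1.12 ± 0.16 (2.17-fold, adjusted p = 4.6e-04). Leaving out each of the 6 arrays in turn gave 0.94 to 1.27 and 0.97 to 1.22, with a highest adjusted p of 0.0126. They ranked 13 and 8 by size of rise among all 41091 probe sets, and 14 probe sets in the table were both called and at least 2-fold higher. The highest MSMB reading, 5.39, was close to the array medians, and how far these readings lie above background is unknown, since detection calls were not used.

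MSMB did not follow in DU145, where its readings spanned 2.63 to 3.12 on 210297_s_at and 2.24 to 2.64 on 207430_s_at over all 9 arrays. Stat5a/b siRNA gave log2 changes there of 0.010 ± 0.17 and -0.090 ± 0.16. The difference of the Stat5a/b siRNA effect, CWR22Rv1 minus DU145, was 1.04 ± 0.24 (adjusted p = 0.0154) and 1.21 ± 0.22 (adjusted p = 0.00395). These were the only 2 of the 28 probe sets called for this difference, against 7.46% of all called and 4.16% called higher. In the gene table NCOA4, a coactivator of the androgen receptor and the cargo receptor of ferritin, stands next to MSMB on chromosome 10. It rose by 0.25 ± 0.06 with Stat5a/b siRNA in CWR22Rv1 (adjusted p = 0.0298), and had a log2 change of 0.16 ± 0.06 in DU145 (adjusted p = 0.0762).

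**Figure D2:**
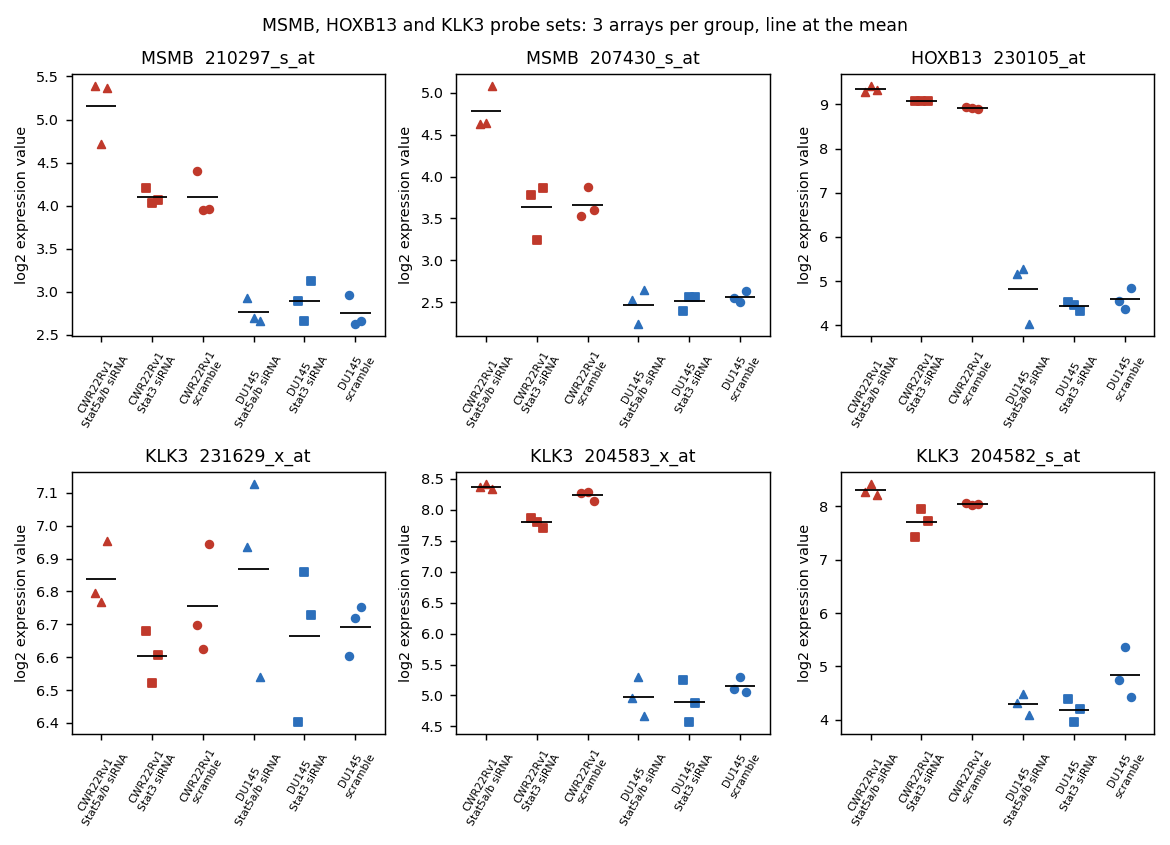
Points are the 3 arrays of each group and the line is their mean, as log2 expression values, for MSMB, HOXB13 230105_at and KLK3. Vertical scales differ between panels. Both MSMB probe sets are highest with Stat5a/b siRNA in CWR22Rv1, and KLK3 231629_x_at is the panel in which the lines overlap.

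The other secreted proteins and the kallikreins did not pass with Stat5a/b siRNA in CWR22Rv1. KLK2 209854_s_at read 9.88, 10.02 and 9.92 with Stat5a/b siRNA, all below the 3 scramble arrays, a log2 change of -0.20 ± 0.15 (adjusted p = 0.626). KLK3 204583_x_at read 8.37, 8.42 and 8.34, all above the scramble arrays, a change of 0.14 ± 0.15 (adjusted p = 0.766). KLK3 204582_s_at read 8.26, 8.41 and 8.20, again all above, with 0.26 ± 0.18 (adjusted p = 0.598). So these probe sets of KLK2 and KLK3, related genes and both high in this line, had estimates of opposite sign, and none passed. KLK2 1555545_at, on which the lines did not separate, had a change of 0.10, the same sign as KLK3. KLK3 231629_x_at read 6.80, 6.77 and 6.95, KLK4 224062_x_at 10.60, 10.62 and 10.59, and ACP3 204393_s_at 7.41, 7.81 and 7.54. These 3 overlapped the scramble arrays, and their changes were 0.08, -0.02 and 0.02.

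For HOXB13 the call with Stat5a/b siRNA depended on which arrays were fitted. Its probe set 230105_at read 9.29, 9.41 and 9.33 with Stat5a/b siRNA, 9.08, 9.07 and 9.07 with Stat3 siRNA and 8.95, 8.93 and 8.89 with scramble, so the 3 groups did not overlap. The change against scramble was 0.42 ± 0.22 and missed the threshold in the fit of all 18 arrays (adjusted p = 0.389), where DU145 arrays of this probe set, spanning 4.03 to 5.26, enter the error. In a fit of the 9 CWR22Rv1 arrays alone the error was 0.052 and the adjusted p was 0.00162, with 8.29% of all probe sets called. HOXB13 209844_at read 9.46, 9.69 and 9.44 with Stat5a/b siRNA, all above scramble with a change of 0.18 ± 0.14, and was called in neither fit. PRAC1, which stands next to HOXB13 on chromosome 17 and is a small protein of prostate and colon, had a change of 0.44 ± 0.15 (adjusted p = 0.122).

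FOXA1 204667_at read 9.41, 9.32 and 9.48 with Stat5a/b siRNA, a change of -0.12 ± 0.08 (adjusted p = 0.567), with all 3 below scramble. Of the surface genes, TMPRSS2 226553_at read 8.43, 8.47 and 8.45, SLC45A3 228696_at 7.07, 6.97 and 6.70, and FOLH1 217483_at 9.12, 9.05 and 9.02. Each of these overlapped the scramble arrays, with changes of -0.036, -0.057 and 0.10. TMPRSS2 211689_s_at read 7.44, 7.38 and 7.15 with Stat5a/b siRNA and 7.53, 7.67 and 7.60 with scramble, a change of -0.27 ± 0.17 (adjusted p = 0.506).

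**Figure D3:**
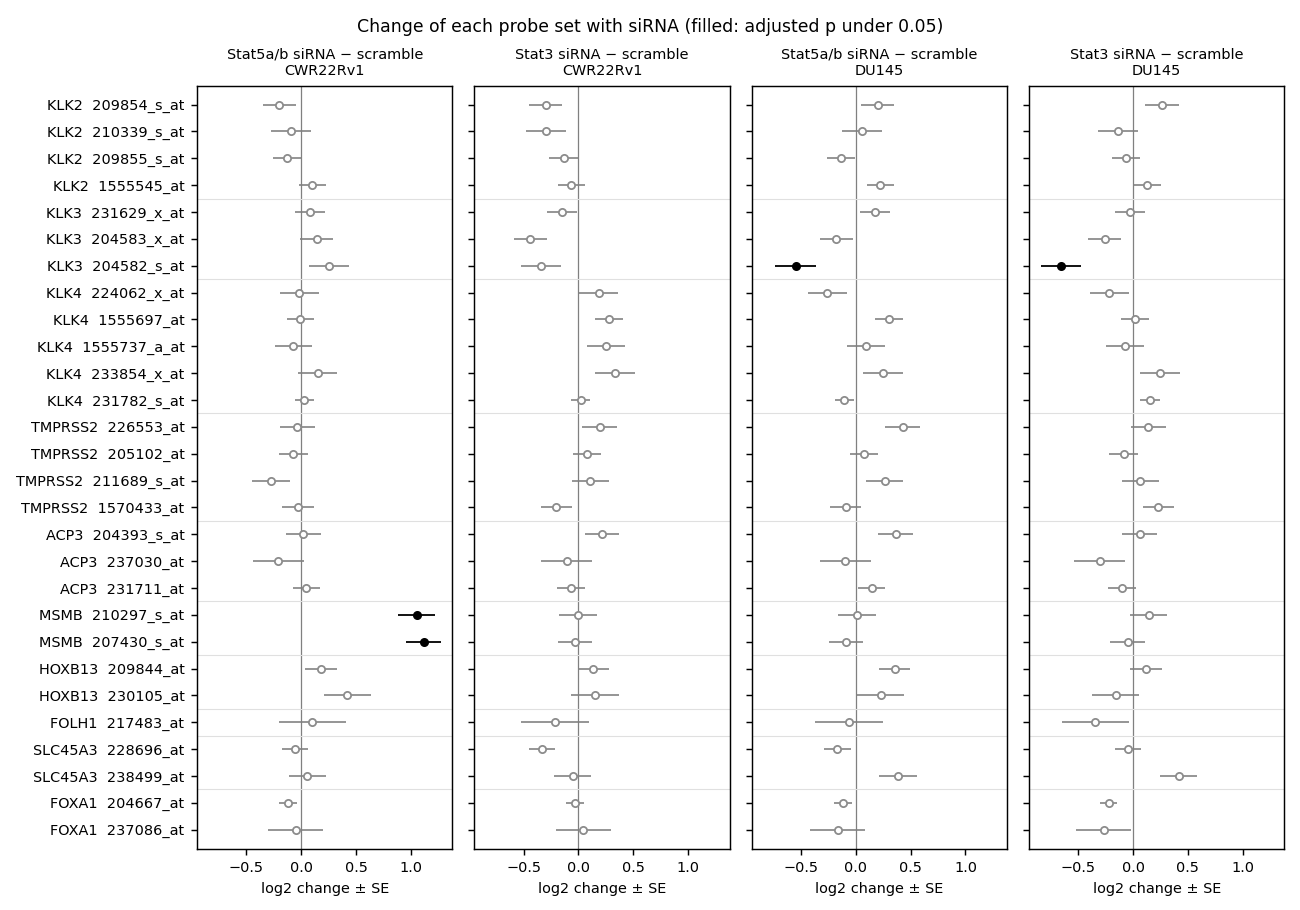
Each point is the log2 change of a probe set with an siRNA against scramble, with its standard error from the fit of all 18 arrays, and black points passed an adjusted p under 0.05. Panels show, from the left, Stat5a/b and Stat3 siRNA in CWR22Rv1, then Stat5a/b and Stat3 siRNA in DU145. The MSMB points stand to the right in the leftmost panel, and KLK3 204582_s_at stands to the left in both DU145 panels.

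With Stat3 siRNA in CWR22Rv1, 0 of the 28 probe sets were called, against 2.72% of the table (limma). At an unadjusted p under 0.05 there were 3, against 13.8% of all. The members' median change was -0.032. The 3 were KLK3 204583_x_at, SLC45A3 228696_at and KLK4 1555697_at, the first pair lower and the KLK4 probe set higher. Stat3 siRNA arrays lay wholly below scramble on 5 of the 28 probe sets and wholly above on 3. The share of all probe sets that did so is not given here, so such separation below is a description of readings only.

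KLK3 204583_x_at read 7.87, 7.81 and 7.71 with Stat3 siRNA, against 8.27, 8.30 and 8.14 with scramble, a log2 change of -0.44 ± 0.15 or 73.8% of control (adjusted p = 0.157). KLK3 204582_s_at read 7.42, 7.94 and 7.72, against 8.06, 8.03 and 8.03, a change of -0.34 ± 0.18 (adjusted p = 0.450). Every Stat3 siRNA array lay below every scramble array on both. KLK3 231629_x_at read 6.68, 6.52 and 6.61 and overlapped scramble. KLK2 209854_s_at read 9.85, 9.90 and 9.77, a change of -0.30 ± 0.15 (adjusted p = 0.407). KLK2 210339_s_at read 8.85, 9.03 and 8.82, against 9.18, 9.25 and 9.15 with scramble, a change of -0.30 ± 0.18 (adjusted p = 0.532), and both KLK2 probe sets lay wholly below scramble.

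When the 9 CWR22Rv1 arrays were fitted alone, 1 of 3 KLK3 and 2 of 4 KLK2 probe sets passed. KLK3 204583_x_at then changed by -0.44 ± 0.065 (adjusted p = 0.00619), KLK2 209854_s_at by -0.30 ± 0.059 (adjusted p = 0.0193) and KLK2 210339_s_at by -0.30 ± 0.071 (adjusted p = 0.0417), and 6.01% of the table was called in that fit. KLK3 204582_s_at (-0.34, adjusted p = 0.126), KLK3 231629_x_at (adjusted p = 0.385), KLK2 209855_s_at (adjusted p = 0.373) and KLK2 1555545_at (adjusted p = 0.713) did not pass there either. The fit of all 18 arrays takes in the DU145 spread, which for the 28 probe sets was larger. Their median SD within a group was 0.21 to 0.25 in the 3 DU145 groups and 0.095 to 0.12 in the 3 CWR22Rv1 groups. The calls of these KLK2 and KLK3 probe sets thus depend on which arrays supply the error.

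KLK4, the neighbour of KLK2, leaned the other way. KLK4 224062_x_at read 10.84, 10.87 and 10.71 with Stat3 siRNA, a change of 0.19 ± 0.18, and KLK4 1555697_at read 8.88, 9.01 and 8.61, a change of 0.28 ± 0.13 (adjusted p = 0.331). KLK4 233854_x_at read 6.29, 6.46 and 6.25, against 5.74, 6.17 and 6.09 with scramble, all above, with 0.33 ± 0.18 (adjusted p = 0.456). None of the KLK4 changes passed in either fit. KLK15, on the other side of KLK3, had a change of 0.17 ± 0.20 (adjusted p = 0.809).

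Among the remaining members, SLC45A3 228696_at read 6.46, 6.77 and 6.67 with Stat3 siRNA, against 6.88, 7.07 and 6.96 with scramble, all below, with a change of -0.33 ± 0.12 (adjusted p = 0.183). TMPRSS2 226553_at read 8.80, 8.58 and 8.66, all above scramble, with 0.19 ± 0.16. ACP3 204393_s_at read 7.89, 7.66 and 7.80, HOXB13 209844_at 9.50, 9.61 and 9.35, and FOXA1 204667_at 9.38, 9.51 and 9.59. None of these passed. FOLH1 217483_at read 8.87, 8.73 and 8.64, a change of -0.22 ± 0.31. The shared FOLH1 and FOLH1B probe sets changed by -0.39 ± 0.14, -0.39 ± 0.12 and -0.24 ± 0.21 and did not pass in the fit of all probe sets (adjusted p = 0.206, 0.124 and 0.744, 2% called).

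**Figure D4:**
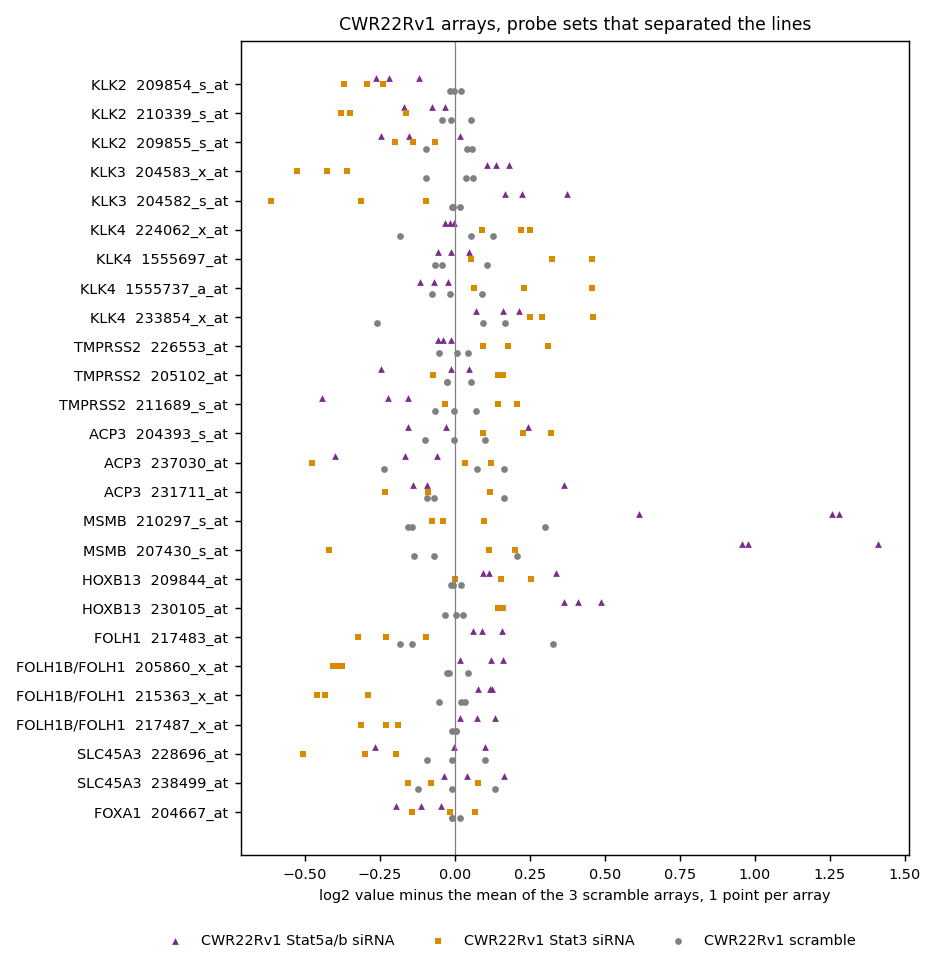
Each point is 1 CWR22Rv1 array, as its log2 value minus the mean of the 3 scramble arrays of that probe set, for the probe sets that separated the lines. Stat5a/b siRNA is in purple triangles, Stat3 siRNA in orange squares and scramble in grey circles. Orange squares lie left of 0 for KLK2, KLK3 and the FOLH1 probe sets and right of 0 for KLK4, and the MSMB triangles lie furthest right.

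Set against each other in CWR22Rv1, Stat5a/b siRNA left 3 of the 28 probe sets higher than Stat3 siRNA and 0 lower, against 7.99% of the table called and 2.95% called higher. They were MSMB 210297_s_at (1.06 ± 0.17, adjusted p = 9.3e-04), MSMB 207430_s_at (1.15 ± 0.16, adjusted p = 2.1e-04) and KLK3 204583_x_at (0.58 ± 0.15 or 1.49-fold, adjusted p = 0.0242). On KLK3 204583_x_at the 3 Stat5a/b siRNA arrays spanned 8.34 to 8.42, against 7.71 to 7.87 on the Stat3 siRNA arrays. The scramble arrays lay between them, nearer the Stat5a/b siRNA arrays. The KLK3 call is not firm, since the adjusted p ran from 0.0529 to 0.0931 when any 1 of the 6 arrays was left out, while the change stayed between 0.53 and 0.62. KLK3 204582_s_at had a change of 0.60 ± 0.18 and just missed the threshold (adjusted p = 0.0586).

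In the fit of the CWR22Rv1 arrays alone, 7 of the 28 probe sets differed between the siRNAs, with 14.2% of the table called. Higher with Stat5a/b siRNA than with Stat3 siRNA were both MSMB probe sets, KLK3 204583_x_at, KLK3 204582_s_at (adjusted p = 0.00887) and HOXB13 230105_at (0.27 ± 0.052, adjusted p = 0.00856). Lower were TMPRSS2 211689_s_at (-0.38 ± 0.090, adjusted p = 0.0222) and TMPRSS2 226553_at (-0.23 ± 0.064, adjusted p = 0.0429). Both siRNAs are compared with the same scramble arrays elsewhere, but this comparison uses none of them.

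The shared FOLH1 and FOLH1B probe sets also differed between the siRNAs in CWR22Rv1. On 205860_x_at the Stat5a/b siRNA arrays read 12.29, 12.39 and 12.43, the Stat3 siRNA arrays 11.88, 11.87 and 11.90 and the scramble arrays 12.25, 12.25 and 12.32. On 215363_x_at they read 12.43, 12.38 and 12.42 with Stat5a/b siRNA, 11.87, 11.84 and 12.02 with Stat3 siRNA and 12.34, 12.25 and 12.32 with scramble. The Stat3 siRNA arrays were the lowest on both, clear of the other groups. The differences were 0.49 ± 0.14 (adjusted p = 0.0451) and 0.50 ± 0.12 (adjusted p = 0.0192), with 6.1% of the 54613 probe sets called. The other shared probe set, 217487_x_at, had 0.32 ± 0.21 (adjusted p = 0.454), and FOLH1 217483_at had 0.32 ± 0.31 (adjusted p = 0.621).

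In DU145, where most member probe sets read low, 1 of the 28 was called with Stat5a/b siRNA, against 19.1% of all probe sets called and 10.3% called lower, and 1 with Stat3 siRNA, against 11.3% and 5.91%. Both calls are the same probe set, KLK3 204582_s_at, which was lower. It read 4.31, 4.49 and 4.09 with Stat5a/b siRNA, 4.38, 3.97 and 4.21 with Stat3 siRNA and 4.75, 5.36 and 4.43 with scramble. The changes were -0.55 ± 0.18 with Stat5a/b siRNA (adjusted p = 0.0470), whose arrays overlapped scramble, and -0.66 ± 0.18 with Stat3 siRNA (adjusted p = 0.0276), whose arrays all lay below it. Both comparisons share the scramble arrays, among which replicate 2 read highest. Without it the changes were -0.29 (adjusted p = 0.232) and -0.40 (adjusted p = 0.131). The Stat5a/b siRNA call was also lost without scramble replicate 1 (adjusted p = 0.0756), Stat5a/b siRNA replicate 1 (0.0945) or replicate 3 (0.147), and the Stat3 siRNA call without Stat3 siRNA replicate 2 (0.110) or replicate 3 (0.0619). Fitting the 9 DU145 arrays alone gave adjusted p = 0.134 and 0.116, with 9.97% and 4.98% of all probe sets called. In the same arrays the monocyte gene CD14 fell by 0.96 with Stat5a/b siRNA and by 1.09 with Stat3 siRNA, and its part in the members' values was not tested.

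KLK3 204583_x_at, which reads the same gene, read 4.96, 5.30 and 4.67 with Stat5a/b siRNA and 5.24, 4.57 and 4.87 with Stat3 siRNA in DU145. Its changes, -0.18 ± 0.15 and -0.26 ± 0.15, did not pass (adjusted p = 0.463 and 0.333). KLK3 231629_x_at read 6.93, 7.13 and 6.54 with Stat5a/b siRNA and 6.40, 6.86 and 6.73 with Stat3 siRNA, on both sides of scramble. KLK2 209854_s_at read 3.78, 3.67 and 3.78 with Stat5a/b siRNA and 3.96, 3.46 and 4.0 with Stat3 siRNA. KLK4 224062_x_at read 4.79, 5.08 and 4.36, and 4.81, 4.47 and 5.07, in the same order. All of these overlapped the scramble arrays.

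The other members in DU145 also overlapped, with 1 exception. FOXA1 204667_at read 7.73, 7.92 and 7.91 with Stat5a/b siRNA and 7.89, 7.68 and 7.67 with Stat3 siRNA, the Stat3 siRNA arrays all lying below the 3 scramble arrays. Its change with Stat3 siRNA was -0.22 ± 0.08 or 85.7% of control and did not pass (adjusted p = 0.0926). HOXB13 209844_at read 5.03, 4.88 and 4.48 with Stat5a/b siRNA and 4.59, 4.71 and 4.36 with Stat3 siRNA. On HOXB13 230105_at the Stat5a/b siRNA arrays read 5.16, 5.26 and 4.03, and without the third of them the change was 0.62 (adjusted p = 9.2e-04), against 0.23 ± 0.22 with all 3 (adjusted p = 0.526). Without the same array, 4 of the 28 probe sets were called with Stat5a/b siRNA, all higher, so this library bears on the count. With all arrays 19.1% of all probe sets were called, and the share without this array is not given here.

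Of the secreted and surface genes in DU145, ACP3 204393_s_at read 4.21, 4.28 and 3.98 with Stat5a/b siRNA and 4.0, 3.67 and 3.88 with Stat3 siRNA. TMPRSS2 226553_at read 5.42, 5.10 and 5.18 with Stat5a/b siRNA and 5.03, 4.53 and 5.29 with Stat3 siRNA. SLC45A3 228696_at read 5.26, 5.45 and 5.22, and 5.55, 5.54 and 5.20, and FOLH1 217483_at 3.42, 4.39 and 4.82, and 4.26, 3.66 and 3.88, in that order. The largest of their changes was that of TMPRSS2 with Stat5a/b siRNA, 0.43 ± 0.16 (adjusted p = 0.0769). MX1, an interferon-induced gene next to TMPRSS2 on chromosome 21, rose by 1.89 ± 0.23 with Stat5a/b siRNA in the same arrays (adjusted p = 2.7e-05). Of the shared FOLH1 and FOLH1B probe sets, 215363_x_at fell by 0.38 ± 0.12 with Stat5a/b siRNA (adjusted p = 0.0439, 15.6% of all probe sets called).

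Between the siRNAs in DU145, 0 of the 28 probe sets were called, against 17.5% of the table (limma), and 3 had an unadjusted p under 0.05, against 29.8%. KLK4 231782_s_at was closest, with 5.13, 5.30 and 5.17 with Stat5a/b siRNA, against 5.62, 5.39 and 5.36 with Stat3 siRNA, a change of -0.26 ± 0.09 (adjusted p = 0.0579). This is a KLK4 probe set on which the lines did not separate. For the Stat3 siRNA effect, CWR22Rv1 minus DU145, 0 of 28 were called, against 1.47%, and 2 had an unadjusted p under 0.05, against 13.8%.

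The order of the 3 groups within a line could rarely be told. In DU145, 0 of the 28 probe sets had a group whose 3 arrays were all above both other groups and 0 a group all below, against 15.7% and 17.6% of all probe sets. In CWR22Rv1, 8 had a group clear at the top, 4 a group clear at the bottom and 3 of these both, and on 19 neither end was clear, where 18.3%, 19.6% and 6.67% of all probe sets had a clear top, a clear bottom or both. The 3 were KLK3 204583_x_at and 204582_s_at, ordered Stat3 siRNA lowest, then scramble, then Stat5a/b siRNA, and HOXB13 230105_at, ordered scramble lowest, then Stat3 siRNA, then Stat5a/b siRNA. The MSMB probe sets had Stat5a/b siRNA clear at the top and no order below it.

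The wider androgen and lineage programme was read from lists with 1 probe set a gene. Of other prostate secretory and surface genes, 22 of 24 were measured, and in CWR22Rv1 0 were called with Stat5a/b siRNA and 1 lower with Stat3 siRNA, ARG2 (arginase 2, -0.35), against 5.03% and 3.37% of genes. Between the siRNAs 4 of these 22 were higher with Stat5a/b siRNA than with Stat3 siRNA in CWR22Rv1 and 0 lower, against 9.05% of genes called. They were ARG2 (0.42 ± 0.08), AZGP1, a zinc-binding glycoprotein of seminal fluid (0.44 ± 0.10), TMEFF2 (0.51 ± 0.13) and PRAC1 (0.52 ± 0.15). In DU145 Stat5a/b siRNA lowered 2 of them, STEAP2 and TRPV6, and Stat3 siRNA lowered ARG2 and STEAP2 and raised ANPEP, against 21.9% and 13.6% of genes. Between the lines 10 of these 22 were higher in CWR22Rv1 and 1 lower, against 56% of genes called. Their median log2 difference was 0.19, beside 3.73 for the 10 members with 1 probe set a gene and 0.033 over all genes. The separation of the lines by the 10 members thus did not hold for this list as a whole.

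Of 12 other kallikreins, 11 were measured, and 0 were called with either siRNA in either line, at 5.03%, 3.37%, 21.9% and 13.6% of genes (limma). Between the lines 4 were higher in CWR22Rv1 and 1 lower, against 56% of genes called, KLK15 (3.11), KLK1 (2.00), KLK11 (1.55) and KLK10 (0.52) being higher and KLK8 lower. Of 18 androgen receptor partners, 12 were measured. With Stat5a/b siRNA in CWR22Rv1 1 was called, higher, CREB3L4 (0.33), and with Stat3 siRNA 0 were called, against 5.03% and 3.37% of genes. Between the siRNAs 1 was called in CWR22Rv1, the coactivator NCOA2, lower with Stat5a/b siRNA (-0.44, adjusted p = 0.00290), against 9.05% of genes. In DU145 CREBBP was higher (0.40) and KDM1A lower (-0.24) with Stat5a/b siRNA, and GRHL2 higher (0.53) and FKBP4 lower (-0.28) with Stat3 siRNA, 2 of 12 each, against 21.9% and 13.6% of genes. Between the siRNAs in DU145 3 were higher with Stat5a/b siRNA, FKBP4 (0.42), GATA2 (0.27) and CREBBP (0.39), against 19.9% of genes. GATA2, a factor that works with the receptor, was 2.00 ± 0.08 higher in CWR22Rv1 than in DU145 and had changes of -0.08 and 0.05 with Stat5a/b and Stat3 siRNA in CWR22Rv1.

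Of 15 androgen-responsive genes that many tissues express, 13 were measured. In CWR22Rv1 Stat5a/b siRNA lowered 2, ELL2, an elongation factor (-0.91 ± 0.16), and its partner EAF2 (-0.28), and Stat3 siRNA lowered 1, the transporter ABCC4 (-0.55), against 5.03% and 3.37% of genes called. In DU145 Stat5a/b siRNA raised 2 and lowered 4, against 21.9% of genes called, and Stat3 siRNA lowered 2, which is close to the 13.6% of all genes. Of the 6 luminal markers, which are keratins and adhesion genes, 0 were called in CWR22Rv1 with either siRNA, while in DU145 4 fell with Stat5a/b siRNA and 3 with Stat3 siRNA, among them CDH1 (-1.18 and -0.98). Of all genes 5.03% and 3.37% were called with Stat5a/b and Stat3 siRNA in CWR22Rv1, and 21.9% and 13.6% in DU145. Array means of the luminal list in CWR22Rv1 were 11.34 to 11.35 with Stat5a/b siRNA and 11.23 to 11.25 with scramble. In DU145 they were 10.48 to 10.49 with Stat5a/b siRNA and 10.88 to 10.94 with scramble. The Stat5a/b siRNA arrays thus lay above scramble in CWR22Rv1 and below it in DU145 on the means of these luminal markers. Their part in the members' values was not tested.

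Cell type lists differed between the lines, not all in 1 direction. Of the 6 luminal markers, 3 were higher in CWR22Rv1 than in DU145 and 3 lower, where 56% of all genes were called. Among them CLDN7 (2.66) and CDH1 (1.74) were higher, and KRT19 (-1.55) and KRT8 (-0.90) lower. Of 5 measured basal markers, 1 was higher, KRT14 (0.30), and 2 lower, DST (-2.45) and KRT15 (-0.75), against the same 56%. Of 6 measured neuroendocrine markers, 4 were higher in CWR22Rv1 than in DU145 and 1 lower, with SCG3 (6.79) and CHGB (5.61) furthest apart, where 56% of all genes were called. Array means of the list were 6.42 to 6.64 in CWR22Rv1 and 3.87 to 4.21 in DU145. Of 5 fibroblast markers, 4 were called higher in CWR22Rv1, led by LUM (5.57), against the same 56%. In CWR22Rv1 COL1A1 rose by 0.45 with Stat5a/b siRNA, in the same arrays as MSMB, and COL3A1 fell by 0.47 with Stat3 siRNA. Both are established cell lines, and the part of these marker genes in the members' values was not tested.

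As a description of likeness, the log2 values of KLK3 231629_x_at over the 18 arrays, centred on their mean, were closest to those of ARHGDIB, CFAP92, PECAM1, PDE6G and PIANP, at root-mean-square distances of 0.0856 to 0.104. All of these spanned little, as that KLK3 probe set does. For KLK3 204582_s_at, chosen after its values were seen, the closest were SDC2, CPLX1, GJA1, MUC13 and ANK3 (0.214 to 0.284), which also read higher in CWR22Rv1 than in DU145. For MSMB 210297_s_at, likewise chosen afterwards, they were BTG1, CLDN3, GPR143, STARD10 and TMEM87B (0.294 to 0.318). The points of such a comparison share 2 lines and their arrays.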

How the data were processed

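RNA of 18 samples was measured on Affymetrix arrays. The authors deposited log2 expression values for each probe set. As tools, RMA and limma are named in the submitters' processing notes, with no version. RMA corrects the background, quantile-normalises and summarises probes. Values ran from 1.54 to 14.3 and were used as deposited, with no filter on dim probe sets. The number of arrays limits the precision.

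Of 54675 probe sets, 62 were controls, 41091 had 1 gene symbol in the platform annotation, 1801 several and 11721 none. The 41091 were fitted with a mean for each of 6 groups and no replicate block, using limma 3.58.1 (lmFit, eBayes) in R 4.3.3. The error pools the 6 groups, with 12 residual degrees of freedom and a prior worth 4.27 more. Tests were two-sided, p-values were Benjamini-Hochberg adjusted over all probe sets within each of 9 comparisons, and a probe set was called at an adjusted p under 0.05. The procedure was tested on simulated data. Lists used the probe set of highest mean for each gene.

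Array values are given for each member's probe set of highest mean and for probe sets called with an siRNA or between siRNAs. The others are given as ranges or differences, except that array values of some more were added after they were seen, for KLK2, KLK3, KLK4, TMPRSS2, HOXB13 and the shared FOLH1 probe sets. Of each list at most 4 called genes are named, by smallest adjusted p, and neighbours and markers that moved were added after their values were seen. For likeness, the 5 genes of smallest root-mean-square distance with a mean of at least 5 are named. Members and lists were chosen with earlier results of these data known.

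The replicate numbers in the labels name no shared culture or day, so pairing was checked as the correlation of deviations from the group means between same-numbered arrays. All 3 pairs exceeded 0.1 for Stat3 siRNA and scramble in DU145 (0.146, 0.200 and 0.396), and these were taken as paired. Differently numbered arrays could exceed it too, as Stat3 siRNA replicate 2 with scramble replicate 1 did (0.133). The main fit leaves this pairing out, and the replicate block was run as an alternative. In the other 5 pairs of groups within a line, not all 3 did (3 of 15 in all), and those numbers were not taken to pair samples.

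Alternatives were quantile and cyclic loess normalisation, a filter at a mean of 5, 1 probe set a gene, eBayes with trend and robust settings, the replicate number as a block, each line alone and leaving out each array. A fit of all 54613 probe sets that are no controls, which takes in the FOLH1 and FOLH1B probe sets, was chosen after seeing the data. Promoters came from RefSeq.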

Additional observations from a re-analysis of the deposited data

Results flagged for a closer look

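MSMB was the gene whose response to Stat5a/b siRNA differed between the lines by a test of the difference itself. On 210297_s_at the difference of the effect, CWR22Rv1 minus DU145, was 1.04 ± 0.24 on the log2 scale (adjusted p = 0.0154, limma). On 207430_s_at it was 1.21 ± 0.22 (adjusted p = 0.00395). Both probe sets read higher on 3 of 3 Stat5a/b siRNA arrays than on any scramble array in CWR22Rv1, and their arrays overlapped in DU145. The DU145 readings were low, 2.63 to 3.12 and 2.24 to 2.64, and how far they lie above background is unknown. A flat DU145 reading may therefore mean that the transcript was not detected there.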

How the results depend on the processing

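Counts of members called are given against those in the report, which are out of 28. With 1 probe set a gene only 10 member probe sets were tested, and without dim probe sets also fewer than 28. With Stat3 siRNA in DU145 (1) they were 2 without dim probe sets, 0 with 1 probe set a gene, 2 with trend and robust eBayes and 0 in the DU145 arrays alone. With Stat5a/b siRNA in DU145 (1) they were 0 with 1 probe set a gene, 2 with the replicate block, 0 in the DU145 arrays alone and 0 with all probe sets fitted, an alternative chosen after seeing the data. With Stat3 siRNA in CWR22Rv1 (0) there were 3 in the CWR22Rv1 arrays alone. With Stat5a/b siRNA in CWR22Rv1 (2) there were 0 without dim probe sets, a filter that removes both MSMB probe sets, and 1 with 1 probe set a gene. Between the siRNAs there was 1 in DU145 (0) with quantile normalisation, without dim probe sets and with the replicate block, and in CWR22Rv1 (3) there were 1 with 1 probe set a gene and 7 in the CWR22Rv1 arrays alone. For the line difference of the Stat5a/b siRNA effect (2) there was 1 without dim probe sets and 1 with 1 probe set a gene. The 1 without dim probe sets is not an MSMB probe set, since that filter removes both. Between the lines (23) there were 9 with 1 probe set a gene. Leaving out single arrays gave 0 to 2 with Stat3 siRNA in DU145 (0 without scramble 2 or Stat3 siRNA 2 or 3), 0 to 4 with Stat5a/b siRNA in DU145 (0 without scramble 2 or Stat5a/b siRNA 1, 4 without scramble 3 or Stat5a/b siRNA 3) and 0 to 2 between the siRNAs in DU145 (2 without Stat5a/b siRNA 3). It gave 2 with Stat5a/b siRNA and 2 between the siRNAs in CWR22Rv1, and 2 to 3 for the line difference of the Stat5a/b siRNA effect. The share of all probe sets called also moved with the setting. In the DU145 arrays alone it was 4.98% with Stat3 siRNA and 9.97% with Stat5a/b siRNA, against 11.3% and 19.1% in the main fit. In the CWR22Rv1 arrays alone it was 6.01% with Stat3 siRNA and 14.2% between the siRNAs, against 2.72% and 7.99%. For most other settings the share is not given here, so those counts do not show whether the members moved more than the table. Other causes of these shifts were not tested. The replicate block changed no other count, and with it KLK3 204582_s_at kept its change of -0.66 with Stat3 siRNA in DU145 (adjusted p = 0.0283). The calls it added were TMPRSS2 226553_at (adjusted p = 0.0481) and KLK4 231782_s_at (adjusted p = 0.0329). The single probe sets followed were those called in the main fit or in an alternative, among them the 23 called between the lines. Of their alternative values, 629 kept direction and side of the threshold, 16 lost the call, 35 gained it and 0 turned round. The tally mixes siRNA changes with the line differences, many of them large, and so does not measure how firm the siRNA calls are.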
